A study of Mus musculus with 5 samples.

Results

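Pik3ap1, the gene of the B-cell adaptor for phosphoinositide 3-kinase (BCAP), was examined with 8 genes of the pathway it feeds in LPS-stimulated mouse macrophages. These were Pik3ca, Pik3cd and Pik3cg (catalytic subunits), Pik3r1 and Pik3r5 (regulatory subunits), Inpp5d (a phosphatase), Akt1 and Mtor (downstream kinases). The 9 members were picked by symbol from the 24419 gene rows. Pik3ap1 was picked because it was higher with Sema3G in these libraries, so its difference between the groups is a description without a test, and the others were picked as its pathway. Bone marrow cells of C57BL/6 mice were grown with 50 ng/ml M-CSF for 5 days to give bone marrow-derived macrophages (BMMs), and all of them then received 100 ng/ml LPS. The controls were 2 samples cultured with PBS for 18 hours, and the treated group was 3 samples cultured with 100 ng/ml recombinant Sema3G, a secreted semaphorin, for the same time. Nothing in the sources used here says whether the samples came from separate mice or cultures, so the spread between them may be technical.

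Class I phosphoinositide 3-kinases (PI3Ks) add a phosphate to a membrane lipid and so make PIP3, which draws kinases such as Akt1 to the plasma membrane. Each enzyme pairs a catalytic subunit with a regulatory one. BCAP carries tyrosine motifs that, once phosphorylated, bind the regulatory subunit p85, and in macrophages it links Toll-like receptors to PI3K. Inpp5d encodes SHIP1, which removes a phosphate from PIP3, and Mtor encodes a kinase of growth control below Akt1.

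RNA was measured as unique molecular identifiers (UMIs) at the 3′ ends of polyadenylated RNA, so that each RNA molecule gives 1 count whatever its length, and levels are in CPM, the count scaled to the same library total. Library totals lay between 1798469 and 2215855 UMIs, and 3 counts in a library correspond to between 1.35 and 1.67 CPM. All 8 macrophage markers looked up were detected, with a summed level of 9761 to 12570 CPM with PBS and 8860 to 9518 CPM with Sema3G, although Mertk had at most 5 UMIs in a library. Of 6 B cell markers, Cd79a, Ms4a1 and Pax5 had no UMI in any library, and the summed level of the list was 3.21 to 7.69 CPM with PBS and 1.35 to 2.22 CPM with Sema3G. Rn45s, the gene of the precursor of ribosomal RNA, took 1.01% and 3.19% of the library total with PBS, and 6.31%, 7.40% and 7.88% with Sema3G. Its share moved with the groups, and it enters the CPM of every gene. The share of all listed genes, Rn45s among them, also moved, from a mean of 76.6% of the total with PBS to 68.1% with Sema3G. UMIs outside the listed genes enter the CPM of every gene too. The median log2 fold change over the 10088 genes tested was -0.22, and it was -0.034 after scaling by TMM factors, which correct for the composition of a library, so changes are also given relative to that median. In a bulk sample, fewer cells of a type and less RNA per cell cannot be told apart.

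Pik3ap1 went from the lowest of the 9 genes with PBS to the seventh with Sema3G. Its UMIs numbered 11 and 13 with PBS, against 51, 76 and 88 with Sema3G. In CPM these were 6.04 and 6.96 with PBS, and 28.4, 34.3 and 40.6 with Sema3G. Every Sema3G library lay above both PBS libraries. Mean levels were 6.50 ± 0.648 CPM (SD, n = 2) for PBS against 34.4 ± 6.11 CPM (SD, n = 3) for Sema3G. The log2 fold change on log2(CPM + 1), a scale that understates changes of low genes, was 2.23, which is 2.45 above the median of all genes and rank 18 of the 10088 genes tested. From the summed UMIs the ratio was 5.34 (95% interval 3.50 to 8.52, exact binomial, for counting error alone). PBS replicate 2 was 1.15 times PBS replicate 1 (interval 0.476 to 2.84), and the highest Sema3G library was 1.43 times the lowest.

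Leaving out any 1 of the libraries kept the log2 fold change of Pik3ap1 between 2.10 and 2.35. Rn45s differed 3.17-fold between the PBS libraries. Pik3ap1 differed 1.15-fold there, but with a wide counting interval of 0.476 to 2.84. Whether the 2 move together was not tested. With the Rn45s share as a covariate, the log2 fold change of Pik3ap1 was 1.41, in a fit that has 2 residual degrees of freedom and in which 89.5% of the variance of the covariate lay between the groups. The part of Rn45s in the difference cannot be told apart from that of Sema3G in such a fit.

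**Figure D1:**
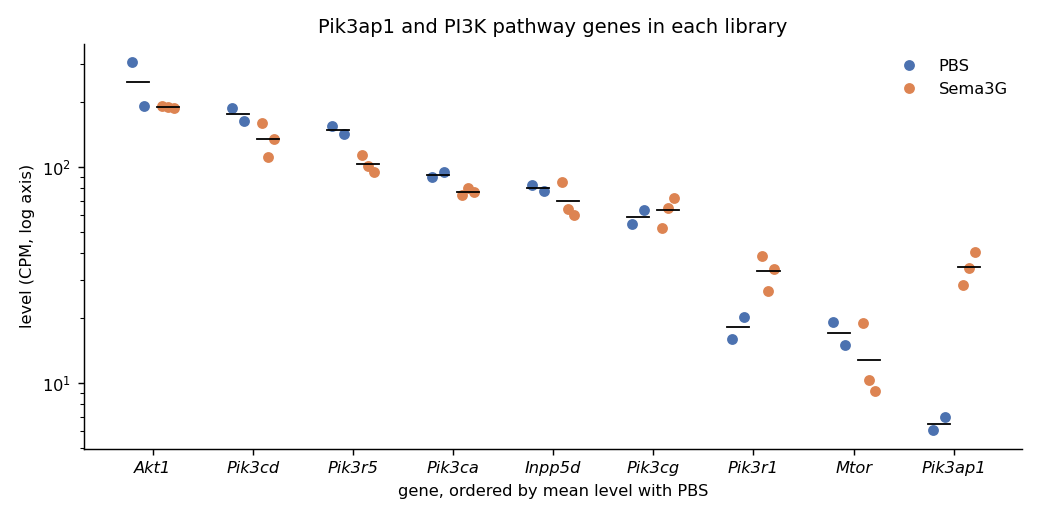
Level of each of the 9 genes in each library, in CPM on a log axis, with genes ordered by their mean with PBS. Blue points are the 2 PBS libraries, orange points the 3 Sema3G libraries and black lines the group means, and Pik3ap1 moves from 6.50 to 34.4 CPM and Pik3r1 from 18.1 to 33.1 CPM.

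The share of Pik3ap1 among the UMIs of the 9 genes does not depend on how libraries are scaled. It was 0.659% (95% Wilson interval 0.368 to 1.18) and 0.897% (0.525 to 1.53) with PBS. With Sema3G it was 3.71% (2.83 to 4.85), 5.02% (4.03 to 6.24) and 5.70% (4.65 to 6.97). These shares rest on 1374 to 1670 UMIs of the 9 genes per library.

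In the GENCODE M21 annotation of GRCm38, the build called mm10 in the submitters' processing notes, Pik3ap1 is a minus-strand gene of chromosome 19 with start 41272377, end 41385102 and a span of 113 kb. No other annotated gene overlaps it, and its coding transcripts share 1 annotated 3′ end, so its tags have 1 annotated source. Upstream sequences are shown for Pik3ap1, for Pik3r1, the member next to it in fold change, and for Inpp5d, whose product works against the kinase. Each line gives the 250 bases before a RefSeq start, from the GRCm38.p6 table, 5′ to 3′ on the strand of the gene. Capitals mark GAGGAA, the core letters of sites of the myeloid factor PU.1.
Pik3ap1, chr19:41385103-41385352, minus strand: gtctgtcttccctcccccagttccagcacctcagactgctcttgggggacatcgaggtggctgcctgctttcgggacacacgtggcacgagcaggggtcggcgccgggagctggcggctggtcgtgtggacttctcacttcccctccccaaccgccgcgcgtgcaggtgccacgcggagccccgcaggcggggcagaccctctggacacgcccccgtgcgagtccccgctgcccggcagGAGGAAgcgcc
Pik3r1, chr13:101768218-101768467, minus strand: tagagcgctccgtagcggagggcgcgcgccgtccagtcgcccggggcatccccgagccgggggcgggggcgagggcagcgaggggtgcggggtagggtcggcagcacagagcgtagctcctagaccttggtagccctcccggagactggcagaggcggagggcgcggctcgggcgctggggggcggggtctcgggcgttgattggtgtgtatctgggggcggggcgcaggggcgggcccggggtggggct
Inpp5d, chr1:87620062-87620311, plus strand: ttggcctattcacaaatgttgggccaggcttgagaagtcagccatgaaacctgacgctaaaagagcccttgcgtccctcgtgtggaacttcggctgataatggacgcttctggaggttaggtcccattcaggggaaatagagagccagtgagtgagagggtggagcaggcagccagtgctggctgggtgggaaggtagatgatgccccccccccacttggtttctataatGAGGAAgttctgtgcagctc

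The first base of GAGGAA lies at position -11 in Pik3ap1 and at -20 in Inpp5d, counting back from -1 at the base before the start. GAGGAA on either strand occurs in 23.3% of the 32851 upstream windows of the same length in the table. The letters TGANTCA of AP-1 (6.75% of windows) and the kappaB motif of NF-kB (1.41%) were searched on both strands too and are in none of the 3 windows shown, which says only that these letters are not there. Among the windows of the other members, GAGGAA on either strand is upstream of Mtor and of a Pik3cg start, and TGANTCA is upstream of Pik3ca. The windows of Pik3ap1 and Pik3r1 have a GC content of 71.2% and 76.4%, and that of Inpp5d 54.4%, against a median of 52.4% over all windows. Pik3r1 has a second RefSeq start, whose window (chr13:101692631-101692880) has a GC content of 42.4% and none of the 3 motifs.

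The other 8 members were tested with limma on log2(CPM + 1), fitted to the 10088 genes averaging 1 CPM or more, with p-values adjusted over all of these genes. At an adjusted p below 0.05, 0 of the 8 were higher or lower with Sema3G, where 1.59% of all genes tested were higher and 0.218% were lower. At an unadjusted p below 0.05 from limma, 1 was higher (Pik3r1) and 1 was lower (Pik3r5), where 6.83% and 14.2% of all genes were. The quasi-likelihood test of edgeR, on recovered UMI counts, called 1 higher (Pik3r1) and 0 lower, against 4.05% and 0.0491% of all genes. DESeq2 called 0 of the 8 in either direction, against 3.09% of all genes higher and 0.0132% lower. limma called 1 higher (Pik3r1) and 0 lower with TMM-scaled CPM, against 3.22% and 0.0297% of all genes, and likewise with CPM recomputed without Rn45s and unlisted UMIs, against 4.57% and 0.00951%. The 8 had a median log2 fold change of -0.30, against -0.22 over all genes tested, and 7 of them lay within 0.5 of the latter, as did 74.0% of all genes tested. All Sema3G libraries lay above both PBS libraries for 1 of the 8 and below for 4, while 11.9% and 26.5% of all genes tested did so.

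Pik3r1 encodes p85 alpha and its shorter forms, the regulatory subunits to which BCAP binds. It had 29 and 38 UMIs with PBS and 70, 59 and 73 UMIs with Sema3G. Mean levels of Pik3r1 were 18.1 ± 3.12 CPM (SD, n = 2) for PBS against 33.1 ± 6.17 CPM (SD, n = 3) for Sema3G. All 3 Sema3G libraries lay above both PBS libraries, by a log2 fold change of 0.83 (95% interval 0.29 to 1.36, limma adjusted p = 0.102). The call differed between fits. The adjusted p was 0.0336 from limma with TMM-scaled CPM, 0.0146 with CPM recomputed without Rn45s and unlisted UMIs, 0.0331 from edgeR's quasi-likelihood test and 0.0922 from DESeq2. The gene (chromosome 13, start 101680563, end 101768217, minus strand) holds an unconfirmed transcript model, Gm36638, on the same strand. This model lies between 101749720 and 101753205, away from the 3′ boundary of the gene at 101680563. The counts of the 2 could mix for tags that come from inside Pik3r1. The long and short forms of its protein start at different places, and tags from the 3′ end do not separate transcripts that share that end.

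Pik3r5 encodes p101, which couples the catalytic subunit p110 gamma to G protein-coupled receptors. It had 156 and 142 CPM with PBS and 113, 102 and 95.4 CPM with Sema3G. All 3 Sema3G libraries were below both PBS libraries, with a log2 fold change of -0.52 (95% interval -0.91 to -0.14, limma adjusted p = 0.135). Against the all-gene median it was -0.30. Without Sema3G replicate 1 the adjusted p was 0.0485 from limma, in a fit that called 8.5% of all genes, most of them lower. With CPM recomputed without Rn45s and unlisted UMIs the log2 fold change was -0.24.

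The catalytic subunits kept their order in both groups. Pik3cd, the gene of the leukocyte-enriched p110 delta, was the highest of the 3, at 187 and 164 CPM with PBS and 161, 111 and 135 CPM with Sema3G. Its groups did not overlap, but the gap between the nearest libraries was small, and its log2 fold change was -0.39 (95% interval -0.80 to 0.025, limma adjusted p = 0.267). Pik3ca, the gene of the widely expressed p110 alpha, was at 90.1 and 94.8 CPM with PBS and 74.5, 79.9 and 77.0 CPM with Sema3G. Its log2 fold change of -0.26 (95% interval -0.65 to 0.14, limma adjusted p = 0.430) was -0.033 relative to the all-gene median, and 0.030 with CPM recomputed without Rn45s and unlisted UMIs. A transcript model, Gm37123 (32454587 to 32455757), lies within Pik3ca on the same strand, before the 3′ boundary of Pik3ca at 32468486. Their counts could mix for tags that come from inside Pik3ca. Pik3cg, the gene of p110 gamma, was at 54.4 and 63.2 CPM with PBS and 52.3, 65.0 and 72.4 CPM with Sema3G. Its groups overlapped (log2 fold change 0.09, 95% interval -0.35 to 0.54, limma adjusted p = 0.821), and without PBS replicate 1 the sign turned, at -0.012.

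Inpp5d was at 82.4 and 77.6 CPM with PBS and 85.1, 64.1 and 59.9 CPM with Sema3G. The groups overlapped, since Sema3G replicate 1 was the highest of all 5 libraries, and the log2 fold change was -0.21 (95% interval -0.65 to 0.22, limma adjusted p = 0.560), 0.012 relative to the all-gene median. It was 0.075 with CPM recomputed without Rn45s and unlisted UMIs.

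Akt1, a kinase recruited by PIP3, was the highest of the 9 genes in both groups. It was at 306 and 192 CPM with PBS and at 192, 190 and 189 CPM with Sema3G. The 3 Sema3G libraries and PBS replicate 2 were nearly equal, and PBS replicate 1 was the highest. The log2 fold change of -0.35 (95% interval -0.77 to 0.077, limma adjusted p = 0.327) was -0.014 without PBS replicate 1 and -0.68 without PBS replicate 2, so it rested on the PBS library kept. Mtor had 35 and 28 UMIs with PBS and 34, 23 and 20 UMIs with Sema3G. Its groups overlapped, and with so few UMIs its interval was wide (log2 fold change -0.44, 95% interval -1.14 to 0.26, limma adjusted p = 0.444). In the annotation, Angptl7 lies within Mtor on the opposite strand, and the small nuclear RNA genes Gm24002 and Gm23318 lie within it on the same strand, as the microRNA genes Mir6939 and Mir7023 do within Akt1 and Pik3cd.

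**Figure D2:**
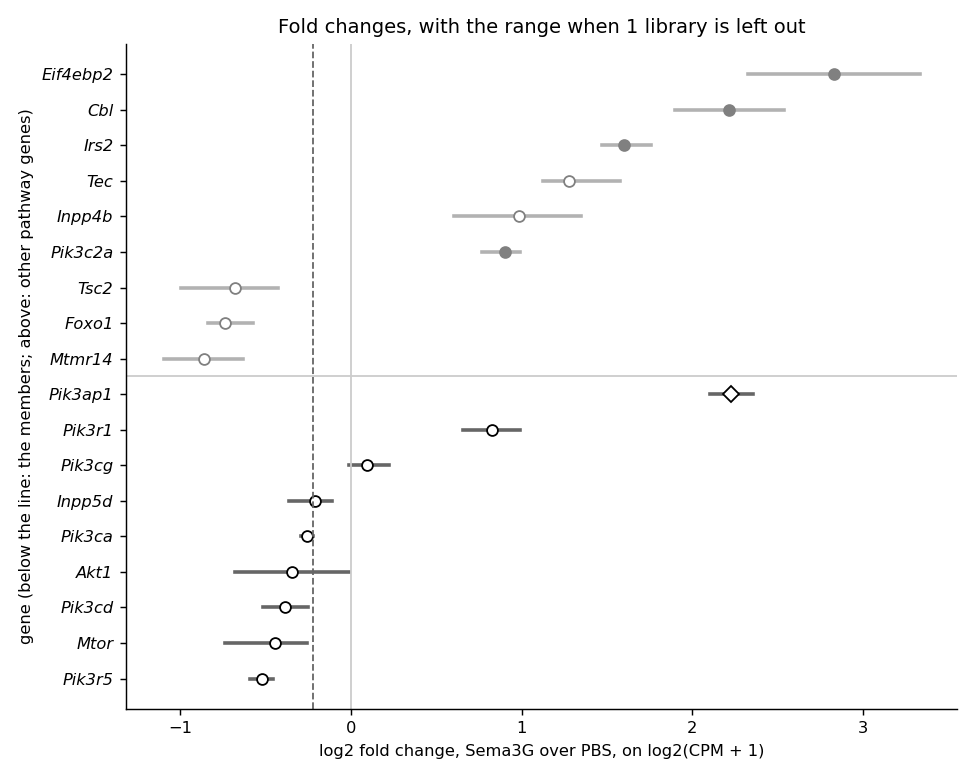
Log2 fold change of Sema3G over PBS on log2(CPM + 1) for the 9 members (below the line) and for other named pathway genes (above it), with bars for the range when 1 library is left out. Filled points passed an adjusted p below 0.05 from limma, the diamond is Pik3ap1, which was not tested, and the dashed line is the median of all genes at -0.22; Pik3ap1 at 2.23 stands apart from the other members, which lie between -0.52 and 0.83.

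The order of the members by level was otherwise much the same in the 2 groups. With PBS it was Akt1, Pik3cd, Pik3r5, Pik3ca, Inpp5d, Pik3cg, Pik3r1, Mtor and Pik3ap1, and the ranges of neighbours were separate except for Pik3r1 and Mtor. With Sema3G the first 6 genes had the same order, Pik3ap1 (34.4 CPM) and Pik3r1 (33.1 CPM) followed with overlapping ranges, and Mtor was last at 12.8 CPM. The ranges of Pik3cd and Pik3r5, of Pik3ca and Inpp5d, and of Inpp5d and Pik3cg also overlapped with Sema3G. How well an RNA is primed differs between genes, so levels of different genes are compared only roughly.

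To ask whether the make-up of the enzyme's RNA differed, the subunits were expressed as shares within a library. Among the UMIs of the class I regulatory genes Pik3r1, Pik3r2, Pik3r3, Pik3r5 and Pik3r6, Pik3r1 held 6.22% and 8.90% with PBS and 18.4%, 15.3% and 17.8% with Sema3G. All 3 Sema3G shares were above both PBS shares, with means of 7.56% ± 1.89 (SD, n = 2) and 17.2% ± 1.65 (SD, n = 3). Pik3r5 held most of the remainder, at 60.9% and 62.1% with PBS and 53.7%, 58.4% and 50.6% with Sema3G, and its Sema3G shares were all below both PBS shares. So were those of Pik3r6, which encodes the other partner of p110 gamma, at 22.1% and 23.9% with PBS and 19.2%, 17.4% and 20.8% with Sema3G. Pik3r2, which encodes p85 beta, held between 5.15% and 10.7%, and Pik3r3 had 2 UMIs in all. Among the catalytic genes, Pik3cd held 53.8% and 47.6% of the UMIs with PBS and 52.5%, 40.4% and 44.1% with Sema3G, and these ranges overlapped. Pik3cb, which encodes p110 beta, held between 4.73% and 6.95%. An exact two-sided permutation test over the 5 libraries gave p = 0.2 for the share of Pik3r1 and p = 0.4 for that of Pik3cd, and 0.4 for both after adjustment over these 2 comparisons. With 2 libraries against 3 the smallest p this test can give is 0.2, so it cannot pass 0.05.

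**Figure D3:**
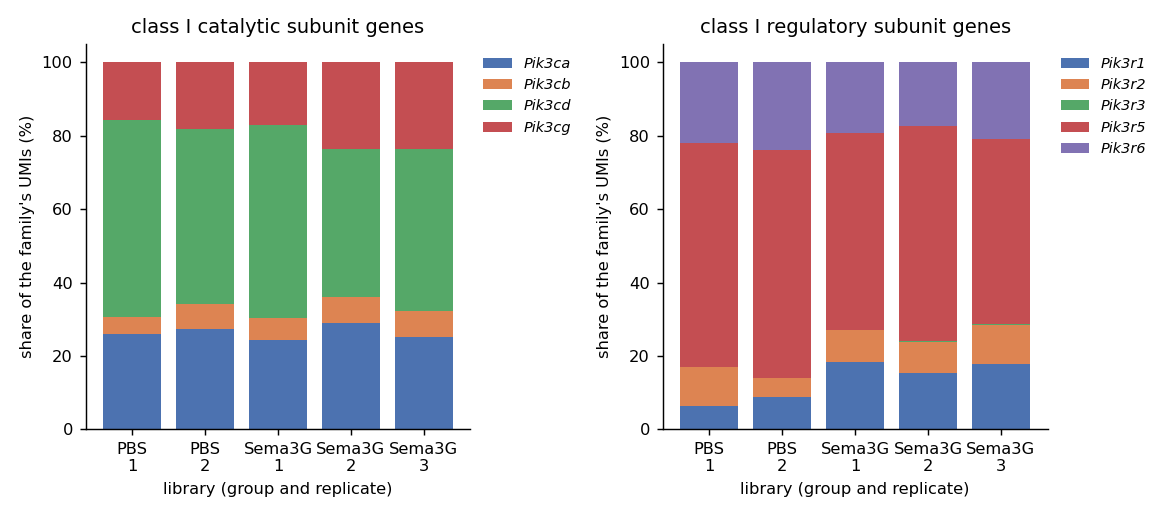
Share in per cent of the UMIs of each gene family held by each gene, in each of the 5 libraries, for the class I catalytic genes (left) and the class I regulatory genes (right). Pik3r1, at the base of the right panel, takes 6.22% and 8.90% in the PBS libraries and 15.3% to 18.4% in the Sema3G libraries.

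Beyond the members, 84 other genes of the pathway were looked up, from adaptors to targets. The list was chosen with earlier results of these data known, so its shares are descriptions and not evidence of enrichment. Of these, 73 were abundant enough to test and the other 11 had at most 8 UMIs over all libraries. In limma, 4 of the 73 rose with Sema3G (5.48%, against 1.59% of all genes tested) and 0 fell (0.218% of all genes). At an unadjusted p below 0.05 from limma, 10 were higher and 10 were lower (13.7% each), where 6.83% and 14.2% of all genes were. By edgeR's quasi-likelihood test 5 of 70 rose (7.14%, against 4.05% of all genes) and 0 fell. By DESeq2 4 of 68 rose (5.88%, against 3.09% of all genes) and 0 fell. The median log2 fold change of the 73 was -0.26, against -0.22 over all genes. Without Sema3G replicate 2 limma called 2 of the list (2.74%, against 0.257% of all genes), and likewise 2 without Sema3G replicate 3 (against 0.277%). Without Sema3G replicate 1 it called 8 of the 73 (6 higher, 2 lower), against 8.5% of all genes.

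Both adaptors that rose link receptors to the p85 subunit. Cbl, a ubiquitin ligase that also serves as an adaptor, had 36 and 23 UMIs with PBS and 101, 205 and 186 UMIs with Sema3G. Its log2 fold change was 2.22 (SE 0.26, limma adjusted p = 0.000185), close to that of Pik3ap1, and it was called in each of the 15 alternative fits. Irs2, an insulin receptor substrate, had 10 and 9 UMIs with PBS and 25, 47 and 40 UMIs with Sema3G, for a log2 fold change of 1.60 (SE 0.33, limma adjusted p = 0.0178). In the fit with the Rn45s covariate the limma adjusted p of Irs2 was 0.656, and leaving out Sema3G replicate 2 or 3 gave 0.161 or 0.132. Of the 14 adaptors and receptor-linked genes tested, these 2 were called by limma (14.3%, against 1.59% of all genes), and the other 12 had log2 fold changes from -0.63 (Frs2) to 0.60 (Cblb). This share too is only a description, since the genes were listed with earlier results known.

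Eif4ebp2, which encodes a translation repressor that mTOR phosphorylates, had the highest fold change of the list. It had 2 and 6 UMIs with PBS and 24, 45 and 65 UMIs with Sema3G, a log2 fold change of 2.83 (SE 0.41, limma adjusted p = 0.000962). In the fit with the Rn45s covariate its log2 fold change was 0.096. The log2 fold change of its paralog Eif4ebp1 was -0.49 (limma adjusted p = 0.163). Pik3c2a, a class II PI3K that works in membrane traffic, had 29.1 and 30.5 CPM with PBS and 50.0, 68.6 and 53.0 CPM with Sema3G, a log2 fold change of 0.90 (SE 0.22, limma adjusted p = 0.0440). The call of Pik3c2a was lost in 7 of the 15 alternative fits, among them 4 of the 5 that leave out a library, with adjusted p values between 0.0754 and 0.329 from limma.

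Of the genes not called that averaged 10 CPM or more, Tec, a kinase that binds PIP3, and Inpp4b, a phosphatase of the pathway, had the highest log2 fold changes, at 1.28 and 0.99. Tec had an adjusted p of 0.0804 from limma, of 0.0395 from edgeR's quasi-likelihood test and of 0.0816 from DESeq2. It was called in 4 of the 15 alternative fits, and with the Rn45s covariate its log2 fold change was 0.033. The lowest were those of Mtmr14, a phosphatase, Foxo1, a transcription factor that Akt restrains, and Tsc2, which holds back mTOR, at -0.86, -0.74 and -0.68, with adjusted p values of 0.0963, 0.172 and 0.271 from limma. Eif4ebp1, Frs2 and Cblb were chosen after their values were seen. Among the mTOR complex genes and their regulators, 0 of 12 were called by limma (against 1.59% of all genes higher and 0.218% lower), none was called by the quasi-likelihood test of edgeR (against 4.05% and 0.0491%) or by DESeq2 (against 3.09% and 0.0132%), and 0 had an unadjusted p below 0.05 in limma (against 6.83% of all genes higher and 14.2% lower).

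**Figure D4:**
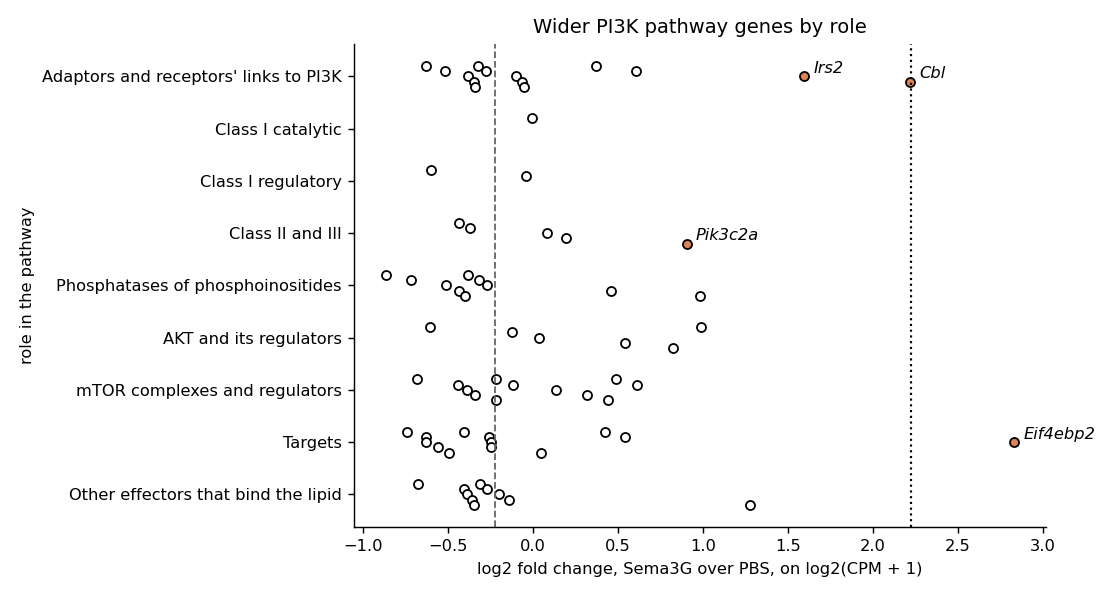
Log2 fold change of Sema3G over PBS on log2(CPM + 1) for the 73 tested genes of the wider list, grouped by role, with filled points for the 4 genes past an adjusted p below 0.05 from limma. The dashed line is the median of all genes (-0.22) and the dotted line is Pik3ap1 (2.23), which Cbl (2.22) matches and Eif4ebp2 (2.83) exceeds.

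The genes whose profile over the 5 libraries was most like that of Pik3ap1 were Wasf2, Isoc1, Trip11, Usp9x and Cbl. Likeness was the Euclidean distance between log2(CPM + 1) values, each gene centred on its own mean, over the 6379 other genes averaging 10 CPM or more. The distances were 0.547 for Wasf2, 0.558 for Isoc1, 0.564 for Trip11, 0.657 for Usp9x and 0.666 for Cbl. Wasf2 (an actin regulator) had 36 and 65 UMIs with PBS and 143, 259 and 286 UMIs with Sema3G. Trip11 (a Golgi protein) had 8 and 16 UMIs with PBS and 58, 95 and 99 UMIs with Sema3G, and Usp9x (a deubiquitinase) had 7 and 5 UMIs with PBS and 41, 60 and 55 UMIs with Sema3G. In all 5 genes every Sema3G library was above both PBS libraries, as the choice by likeness requires. Of the members, Pik3r1 came nearest to Pik3ap1, at a distance of 1.66 and rank 239.

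Fold changes across all genes moved with the length of the gene on the genome. Of 9445 tested genes with a span in the annotation, the quartile with the shortest spans (up to 10.7 kb) had a median log2 fold change of -0.37 and 0.339% of its genes called higher by limma. In the quartile with the longest spans (from 52.9 kb) the median was 0.014 and 3.73% were called higher. Pik3ap1 at 113 kb, Cbl at 91.1 kb and Pik3c2a at 106 kb are in the longest quartile, whereas Irs2 at 23.8 kb and Eif4ebp2 at 24.2 kb are not. Of the 8 other members, 6 are in the longest quartile and 0 of them were called higher by limma, where 3.73% of that quartile were. Mtor spans 109 kb and Inpp5d spans 100.2 kb. Of the 73 genes of the wider list, 38 are in it and 2 of these rose. The part of gene span in the result for Pik3ap1 was not tested.

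**Figure D5:**
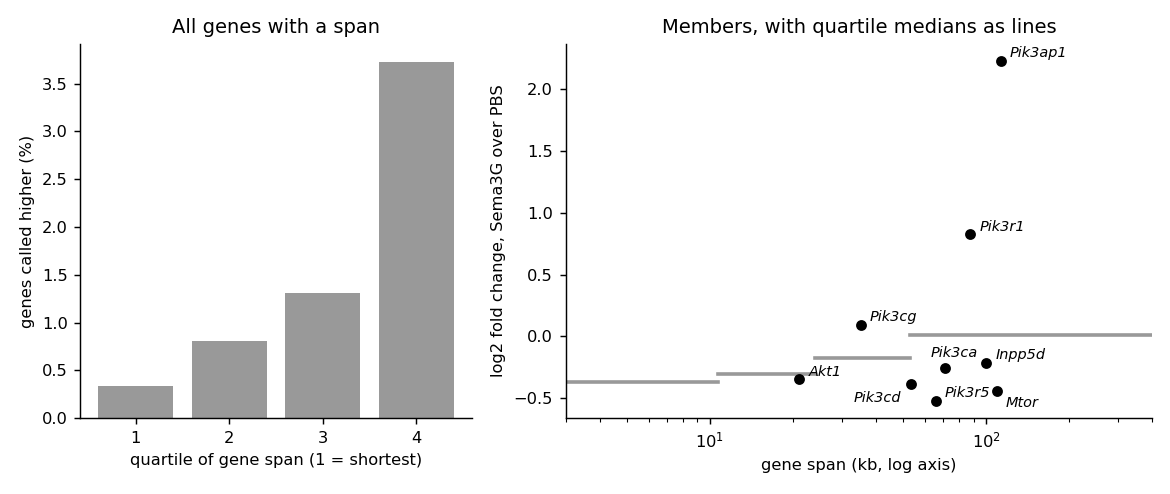
Left, share in per cent of genes called higher with Sema3G by limma in each quartile of gene span, from 0.339% in the shortest to 3.73% in the longest. Right, log2 fold change of the 9 members against gene span in kb on a log axis, with grey lines for the median of each quartile, showing 7 members in the longest quartile of which only Pik3ap1 and Pik3r1 lie above its median of 0.014.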

How the data were processed

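RNA from 2 PBS and 3 Sema3G samples was used. Per the labels and the study's methods, libraries were made with the QuantSeq 3′ mRNA-Seq FWD kit with UMIs, reads were mapped to mm10, and UMIs were counted with Strand NGS and normalized with EdgeR (3.12 in the submitters' processing notes). Not given in the sources used here are the annotation, filters, strand setting of the counting and version of Strand NGS.

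The deposited table holds CPM values made by the authors, with p-values, q-values and ranks of their own comparison, which were not used. CPM values were whole multiples of 1 step per library (100% of nonzero values within 0.01 of a whole count), which gave the UMI counts and library totals. UMIs on listed genes were 1283029 to 1487137 per library, 76.6% ± 1.44 (SD, n = 2) of the total with PBS and 68.1% ± 2.86 (SD, n = 3) with Sema3G. Rare RNAs are poorly resolved at this depth, and the intervals of shares and ratios are for counting error alone. In 27 rows the symbol reads as a date, and none of these is named.

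The 10088 genes averaging 1 CPM or more were fitted on log2(CPM + 1) by limma (version 3.58.1, in R version 4.3.3) with its trend option and Benjamini-Hochberg adjustment over all of them. Intervals of log2 fold changes are 95% intervals of that fit. Alternatives on the recovered counts were edgeR (version 4.0.16, quasi-likelihood test) and DESeq2 (version 1.42.0). All 3 were tested on simulated data. Other alternatives changed the pseudocount, filter, scaling, covariate and replicate block, or left out each library. Shares used Wilson intervals and an exact permutation test (scipy 1.17.1). Positions came from GENCODE M21, which matched all 9 members by symbol, and upstream sequences from RefSeq, GRCm38.p6, with 9 members matched.

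The members, lists and tests were chosen with earlier results of these data known. Named are the 9 members, genes of the wider list past the adjusted p, the 3 highest and 3 lowest others averaging 10 CPM or more, the other genes of the 2 shares, and the 5 genes most like Pik3ap1. Some results that this rule names are not reported here. Markers of further cell types were looked up. NK cell markers had no UMI, and the summed levels of the others with PBS and with Sema3G were 0 to 2.14 and 0 to 5.00 CPM (T cells), 116 to 169 and 103 to 133 CPM (neutrophils, mostly S100a8), 0 and 0 to 0.556 CPM (dendritic cells), 0 and 0 to 0.461 CPM (mast cells and basophils) and 9.10 to 25.8 and 12.2 to 20.7 CPM (stromal cells). limma called no marker of any list. Adgre1 was called without Sema3G replicate 1 and Cd68 without PBS replicate 2, and with the Rn45s covariate Cd68 (limma adjusted p = 0.0315) and Cd14 (limma adjusted p = 0.0451) were.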

Additional observations from a re-analysis of the deposited data

How the results depend on the processing

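Having only 2 control libraries limits every comparison, and a fit with 1 PBS library takes its spread from the Sema3G libraries, so that the lone library is assumed to vary as they do. Causes of the changes below were not tested.

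The log2 fold change of Pik3ap1, 2.23, was 1.77 with a pseudocount of 5 CPM, 2.55 with CPM recomputed without Rn45s and unlisted UMIs, 2.61 with edgeR's quasi-likelihood test, 2.63 with DESeq2 and 1.41 with the Rn45s covariate, and 2.10 to 2.35 with 1 library left out. The number of genes called, 182 (160 higher, 22 lower), was 108 with no filter, 328 with TMM-scaled CPM (325 higher, 3 lower), 482 with CPM recomputed without Rn45s and unlisted UMIs (481 higher, 1 lower) and 334 with edgeR's quasi-likelihood test (330 higher, 4 lower). Leaving out 1 library gave 26 to 856 calls, namely 92 without PBS replicate 1 (83 higher, 9 lower), 856 without Sema3G replicate 1 (303 higher, 553 lower, so that most were lower), 26 without Sema3G replicate 2 and 28 without Sema3G replicate 3 (all higher in both). Of the 8 other members, 1 was called instead of 0 with TMM-scaled CPM, CPM recomputed without Rn45s and unlisted UMIs and edgeR's quasi-likelihood test (Pik3r1 each time) and without Sema3G replicate 1 (Pik3r5), for a range of 0 to 1 with 1 library left out. Of the 73 tested genes of the wider list, 4 called genes became 1 with the Rn45s covariate, a fit that called 151 of 10088 genes. The list had 2 to 8 called genes with 1 Sema3G library left out, where 26 to 856 of all genes were called. The share of Pik3cd kept its direction with 1 library left out, as did that of Pik3r1.

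Signs turned for genes that were not called. Pik3ca was at 0.030 and Inpp5d at 0.075 with CPM recomputed without Rn45s and unlisted UMIs, and Inpp5d at 0.0036 with DESeq2. Pik3cg ranged from -0.012 to 0.22 with 1 library left out. With the Rn45s covariate Pik3cd was at 0.29, Pik3cg at -0.75, Inpp5d at 0.50, Akt1 at 0.69, Mtor at 1.21 and Tsc2 at 0.13, and the difference in median log2 fold change between the longest and shortest quartile of gene span went from 0.38 to 0.013. With 2 residual degrees of freedom, the covariate fit says little about stability.

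The groups share replicate numbers 1 and 2, but no label says that a number marks a shared mouse, batch or day. Across genes, the deviations from the group means of PBS and Sema3G libraries of the same number had correlations of 0.17 and 0.11. Sema3G replicate 3, which has no PBS partner, had 0.097 with PBS replicate 2 and -0.097 with PBS replicate 1. With 2 PBS libraries their deviations are opposite, so a Sema3G library correlates positively with 1 of them in any case. These values therefore do not decide whether libraries are paired. With the replicate block, which leaves 1 residual degree of freedom and takes nothing from the unpaired Sema3G replicate 3, 573 genes were called (298 higher, 275 lower), 1 of the 8 other members was called (Pik3r1, log2 fold change 0.80, limma adjusted p = 0.0408) and Pik3cg was at -0.0081.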
